A study of Mus musculus with 39 samples.

Results

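H3K4me1 peak lists of DP and Pdgfra+ naive extra-embryonic endoderm (nEnd) were compared gene by gene. The 6 lists, 3 from DP and 3 from Pdgfra+ libraries, were taken by their labelled mark and population from the 36 peak lists of a series of 39 CUT&Tag samples. All 6 came from untreated OCT4-mCherry cells, a mouse embryonic stem cell line with a fluorescent OCT4 reporter, that had been differentiated and expanded as nEnd, a culture model of the primitive endoderm. Cells were sorted by the reporter and by an antibody to the receptor PDGFRA. DP cells were positive for both, and the cells labelled Pdgfra were positive for PDGFRA without the reporter. The culture is grown on mouse embryonic fibroblast feeders, and a single reporter line was used. The study describes its replicates as biological, but the sources used here do not say that these were separate cultures, and p-values measure the spread between these samples alone. Each library is a pool of sorted cells, so fewer cells with the mark and less of the mark per cell cannot be told apart. The comparison asks which genes carry the mark while OCT4 is still present in endoderm cells and which after it is lost.

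H3K4me1 is the monomethylated form of lysine 4 of histone H3, laid down at enhancers and on the flanks of promoters. It is found at enhancers in use, where H3K27ac accompanies it, and at enhancers that are primed or have been decommissioned, where it does not, so a peak is not a readout of transcription. The primitive endoderm arises beside the epiblast in the blastocyst under FGF signalling, expresses GATA6, GATA4, SOX17 and PDGFRA, and secretes the laminins and type IV collagen of the basement membrane. The epiblast keeps the naive pluripotency factors, such as OCT4 (Pou5f1), NANOG and TFCP2L1.

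In these lists a gene counts as marked where its transcription start site (TSS) was the nearest of 21911 protein-coding TSSs to the midpoint of a peak, within 20 kb. The place of a peak is its rank by total signal as a percentage of the list's length, so that 0% is the peak with most signal. Total signal is summed fragment coverage, which was not scaled to depth, so it is compared within a library and not between libraries.

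8 genes carry the sequences the results turn on, shown as 300-base windows around the point of highest signal in the library where the gene's peak was best placed (GRCm38, RefSeq sequence). Capitals mark matches on either strand to any of the motifs that follow, which may overlap. GATAAG is the core read by factors of the GATA family, and ATTTGCAT is the octamer read by OCT4 and other POU factors. AACAATG is a motif of the SOX family, GGGTGTG of the Krüppel-like factors and AAGGTCA of ESRRB and related nuclear receptors. GGAATG is read by TEAD factors, GTAAACA by forkhead factors such as the FOXA group, and TTCNNNGAA by STAT factors. TGANTCA is the site of the AP-1 dimers and GCCNNNGGC that of the TFAP2 family. A match describes letters and not binding. The first 4 windows were taken at genes with the mark in 3 of 3 DP libraries, of which Pou5f1 is also in 1 Pdgfra+ list and the others in none.
Pou5f1 (+ strand, chr17:35503798-35504097): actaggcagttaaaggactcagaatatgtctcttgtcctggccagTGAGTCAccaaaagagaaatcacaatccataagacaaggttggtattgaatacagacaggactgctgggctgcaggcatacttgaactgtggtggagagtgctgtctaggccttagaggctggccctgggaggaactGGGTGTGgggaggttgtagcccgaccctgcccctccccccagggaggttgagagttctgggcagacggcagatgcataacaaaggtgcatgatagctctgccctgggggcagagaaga
Tfcp2l1 (+ strand, chr1:118626521-118626820): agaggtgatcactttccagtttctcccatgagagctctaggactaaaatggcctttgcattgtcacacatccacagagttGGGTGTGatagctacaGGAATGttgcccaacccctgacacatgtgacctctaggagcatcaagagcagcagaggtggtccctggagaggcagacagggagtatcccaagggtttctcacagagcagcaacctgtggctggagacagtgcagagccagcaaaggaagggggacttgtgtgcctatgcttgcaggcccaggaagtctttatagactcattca
Lefty2 (+ strand, chr1:180883914-180884213): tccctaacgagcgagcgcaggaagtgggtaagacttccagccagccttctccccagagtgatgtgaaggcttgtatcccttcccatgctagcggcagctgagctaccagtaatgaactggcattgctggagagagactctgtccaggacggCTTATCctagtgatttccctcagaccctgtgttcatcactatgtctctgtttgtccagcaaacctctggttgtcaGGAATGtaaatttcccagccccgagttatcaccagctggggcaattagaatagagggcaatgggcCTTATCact
Agtrap (+ strand, chr4:148083885-148084184): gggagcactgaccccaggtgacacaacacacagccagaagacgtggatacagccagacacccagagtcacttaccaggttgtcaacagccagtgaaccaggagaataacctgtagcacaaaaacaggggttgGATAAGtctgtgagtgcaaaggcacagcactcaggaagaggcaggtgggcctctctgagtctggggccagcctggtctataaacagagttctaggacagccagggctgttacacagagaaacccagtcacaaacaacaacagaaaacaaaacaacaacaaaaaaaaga
The Pou5f1 window lay 2.07 kb upstream of the TSS in intergenic sequence, the Tfcp2l1 window 1.28 kb upstream and the Lefty2 window 9.05 kb upstream, both intergenic. The Agtrap window lay in an intron of that gene, 4.0 kb downstream of the TSS. The points of highest signal in the libraries that listed the gene were spread over 3.02 kb at Pou5f1 and 4.99 kb at Lefty2. The next 2 windows were taken at genes marked in 3 of 3 Pdgfra+ libraries and in no DP library.
Ppp1r37 (+ strand, chr7:19547494-19547793): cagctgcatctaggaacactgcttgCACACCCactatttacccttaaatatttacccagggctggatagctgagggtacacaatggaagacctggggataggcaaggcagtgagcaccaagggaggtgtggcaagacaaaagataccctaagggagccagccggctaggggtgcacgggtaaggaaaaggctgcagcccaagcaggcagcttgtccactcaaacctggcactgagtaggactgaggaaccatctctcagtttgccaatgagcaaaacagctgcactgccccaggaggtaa
Ntn5 (+ strand, chr7:45680025-45680324): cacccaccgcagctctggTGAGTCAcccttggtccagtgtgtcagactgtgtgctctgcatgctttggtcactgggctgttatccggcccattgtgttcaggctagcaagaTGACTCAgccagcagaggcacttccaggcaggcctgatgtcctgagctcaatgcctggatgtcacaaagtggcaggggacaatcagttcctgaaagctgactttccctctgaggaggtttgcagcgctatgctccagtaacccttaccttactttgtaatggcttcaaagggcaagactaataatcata
The Ppp1r37 window lay in an intron of that gene, 15.4 kb downstream of the TSS. The Ntn5 window lay 3.85 kb upstream of the Ntn5 TSS, in an intron of the neighbouring gene Sec1. The last 2 windows were taken at genes that ranked among the highest in all 6 lists.
Pmepa1 (+ strand, chr2:173262041-173262340): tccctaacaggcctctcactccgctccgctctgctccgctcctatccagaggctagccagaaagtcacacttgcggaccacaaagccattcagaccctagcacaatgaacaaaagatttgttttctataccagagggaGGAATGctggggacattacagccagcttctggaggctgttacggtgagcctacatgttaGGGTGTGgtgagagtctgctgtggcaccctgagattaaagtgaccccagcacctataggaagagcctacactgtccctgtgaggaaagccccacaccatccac
Aqp1 (+ strand, chr6:55324237-55324536): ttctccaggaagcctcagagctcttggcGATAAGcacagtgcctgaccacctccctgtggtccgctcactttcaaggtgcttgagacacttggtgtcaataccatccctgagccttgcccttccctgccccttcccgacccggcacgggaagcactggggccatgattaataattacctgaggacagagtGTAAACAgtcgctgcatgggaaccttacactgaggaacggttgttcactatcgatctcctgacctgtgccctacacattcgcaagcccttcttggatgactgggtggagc
The Pmepa1 window was intronic, 14.3 kb downstream of its TSS, and the Aqp1 window intergenic, 12 kb upstream. Both windows are those of DP replicate 1. The points of highest signal in the 6 libraries were spread over 16.5 kb at Pmepa1 and 17.5 kb at Aqp1.

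List lengths varied widely within each population and overlapped between them. DP lists held 4371, 11874 and 11334 peaks in replicates 1 to 3, and Pdgfra+ lists 1723 and 10620 in replicates 1 and 3, with fewest in replicate 2 (9193 ± 4185 against 4472 ± 5334, SD, n = 3 and 3, exact two-sided permutation p = 0.20). Pdgfra+ replicate 3 was thus close to DP replicates 2 and 3, and the other Pdgfra+ lists were shorter than any DP list. DP lists marked 1728, 5128 and 4132 genes and Pdgfra+ lists 713, 450 and 4001, which is 3663 ± 1748 against 1721 ± 1979 (SD, n = 3 and 3, exact two-sided permutation p = 0.20, adjusted p = 0.30). With each list cut to its peaks of highest total signal, as many as the shortest list held (equal lists), the counts came together, at 457, 559 and 501 genes in DP and 458, 450 and 499 in Pdgfra+ (506 ± 51.2 against 469 ± 26.3, exact permutation p = 0.30, adjusted p = 0.30).

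**Figure D1:**
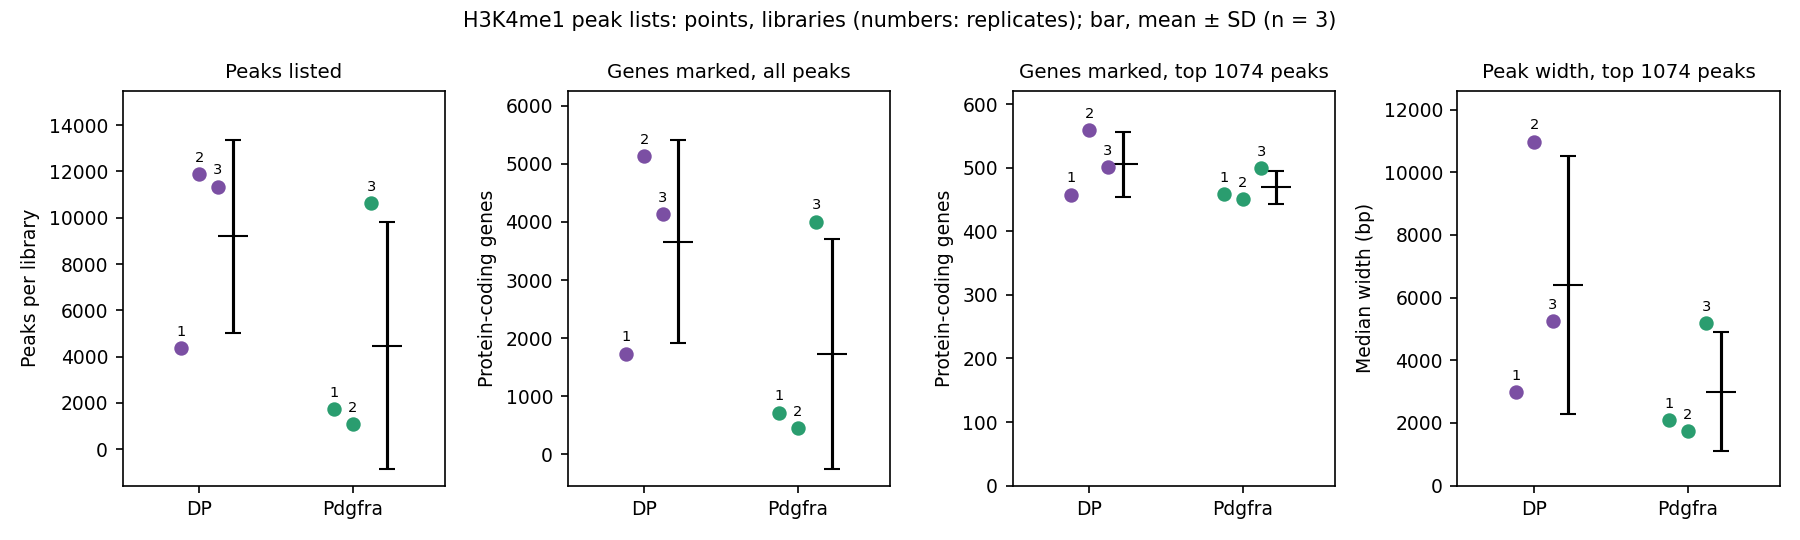
Peaks per library, protein-coding genes marked with all peaks and with equal lists, and median peak width with equal lists in bp, for DP and Pdgfra+ H3K4me1 libraries. Points are libraries numbered by replicate and bars are the mean ± SD (n = 3), and in each panel at least 1 Pdgfra+ library lies within the range of the DP libraries.

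The median width of all peaks was 2196, 4338 and 2384 bp in DP and 1917, 1740.5 and 2574 bp in Pdgfra+. With equal lists it was 2978.5, 10970.5 and 5247 bp in DP and 2084, 1740.5 and 5177.5 bp in Pdgfra+, with DP replicate 2 standing apart through broad domains. Promoters, from 1 kb upstream to 100 bp downstream of a TSS, were touched by 8.67, 23.1 and 12.5% of DP peaks and by 5.92, 5.49 and 13.3% of Pdgfra+ peaks. None of the 9 comparisons of whole lists passed the threshold of 0.05 (raw exact permutation p of 0.20 to 0.30, adjusted p = 0.30 for each), and with 3 against 3 libraries no p below 0.10 could be reached.

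The covered bases of 2 lists were compared by the Jaccard index, the shared length over the joint length. With equal lists it was 0.211 on average between DP libraries (0.133 to 0.256), 0.141 between Pdgfra+ libraries (0.124 to 0.149) and 0.132 between the populations (0.0513 to 0.257). The highest index between populations therefore reached the highest within DP. The excess within over between populations was 0.0438 (one-sided exact permutation p = 0.20, the smallest possible being 0.10).

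Chromosome 6 held 12.8, 9.03 and 9.93% of DP peaks and 14, 14.3 and 9.60% of Pdgfra+ peaks, against 5.49% of the length of the chromosomes and 5.08% of protein-coding genes. With equal lists its share was 13.7 to 18.4% in DP and 14.3 to 15.9% in Pdgfra+. Dppa3, Nanog, Gata2, Aqp1, Hk2 and several other genes named here lie on it. H3K27ac lists of the same populations held 4.71 to 5.32% of their peaks on it, and H3K27me3 lists 8.45 to 14.7%. The part of chromosome 6 in the results was not tested, and gene counts without it are given beside the main ones. Chromosome X held 0.137, 0.564 and 0.300% of DP peaks and 0, 0 and 0.377% of Pdgfra+ peaks, against 6.28% of the length. Nr0b1 and Cited1 lie on chromosome X.

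Taking all peaks, 188 genes were marked in 3 of 3 DP and 0 of 3 Pdgfra+ libraries, 0.858% of those compared, and 6 genes in 3 of 3 Pdgfra+ and 0 of 3 DP libraries (0.0274%). Another 166 genes were marked in all 6, and 15185 in none. Without chromosome 6 the counts were 166 and 6. The DP count depended most on Pdgfra+ replicate 3 and DP replicate 1. In all 3 DP libraries 1472 genes were marked. Of these, 196 were missing from Pdgfra+ replicate 3, and 188 of those also from the short lists. Without Pdgfra+ replicate 3 the count of genes marked in 3 of 3 DP and 0 of 2 Pdgfra+ libraries was 924, and without DP replicate 1 the DP count was 903. The Pdgfra+ count of 6 became 23 without Pdgfra+ replicate 1 and 34 without Pdgfra+ replicate 2. Leaving a library out of such a count can only hold or raise it. Conversely 707 genes of Pdgfra+ replicate 3 had no peak in any DP list, while the short Pdgfra+ lists named 713 and 450 genes in all.

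With equal lists the balance moved. There were 36 genes in 3 of 3 DP and 0 of 3 Pdgfra+ libraries (0.164%) and 16 genes the other way (0.073%), with 56 marked in all 6, or 29 and 14 genes without chromosome 6. With 1 library left out, these counts ranged from 42 to 83 and from 21 to 46. Of the 36 genes, 34 had a peak further down the full list of Pdgfra+ replicate 3, and of the 16 genes 12 had one in a full DP list. The DP calls of the full and of the equal lists shared 2 genes, 1.06% of the 188 and 5.56% of the 36. The Pdgfra+ calls shared 4, which is 66.7% of the 6 and 25% of the 16. The 2 shared DP genes were Agtrap and Crb2, and the 4 shared Pdgfra+ genes included Sfi1, Ppp1r37 and Ntn5.

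**Figure D2:**
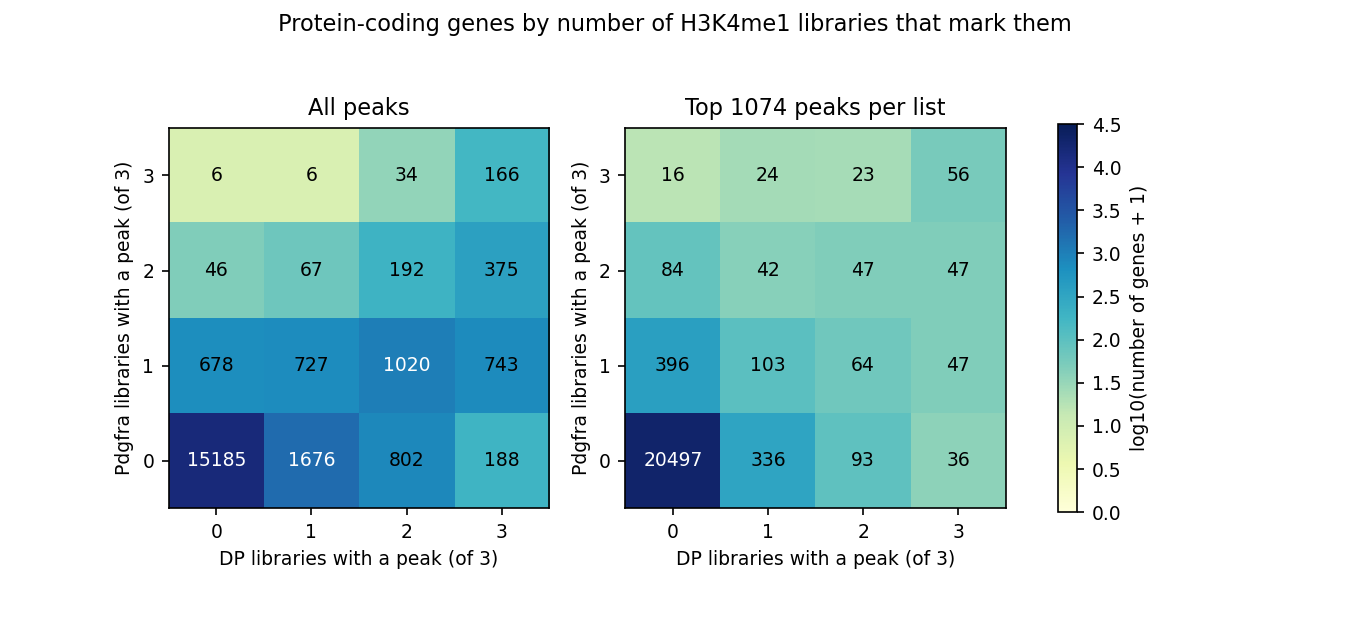
Number of protein-coding genes by how many of 3 DP libraries (x axis) and of 3 Pdgfra+ libraries (y axis) marked them, with all peaks and with equal lists, coloured by log10 of the number plus 1. With all peaks the lower right corner holds 188 genes and the upper left 6, and with equal lists 36 and 16.

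**Figure D3:**
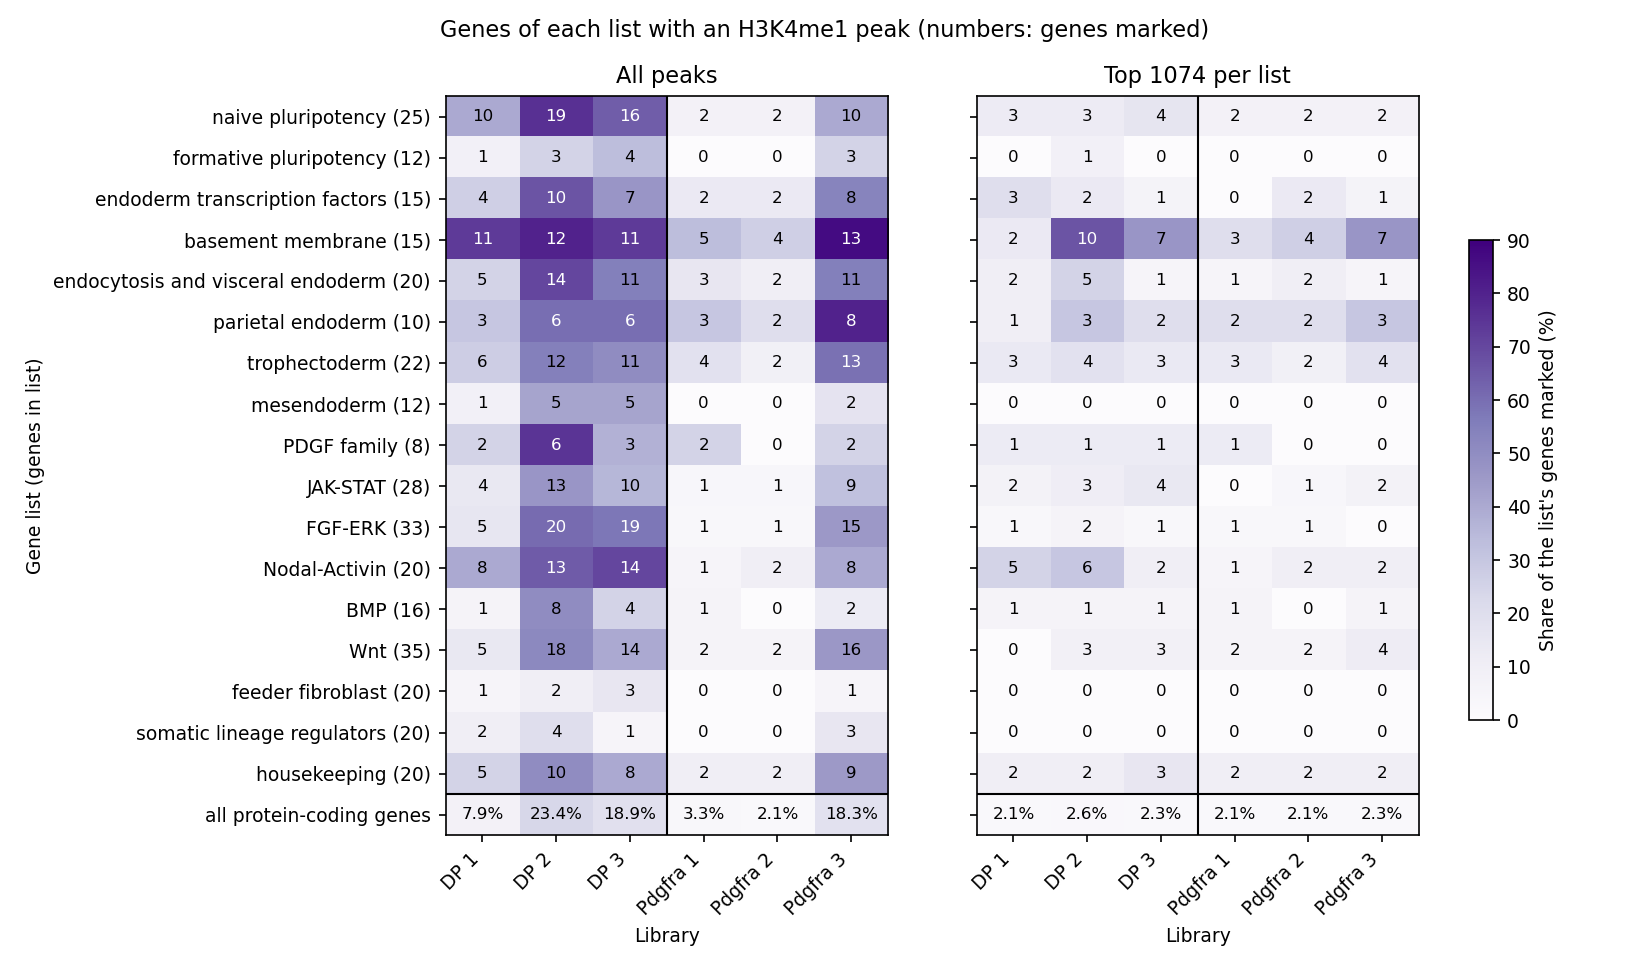
Genes marked in each library for 17 gene lists (rows, with list size) and for all protein-coding genes, with all peaks and with equal lists; colour is the percentage of the list. Naive pluripotency has 10, 19 and 16 genes in DP and 2, 2 and 10 in Pdgfra+ with all peaks, and 3, 3 and 4 against 2, 2 and 2 with equal lists.

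Naive pluripotency genes were marked more often in DP than in Pdgfra+ lists. Of 25 genes, DP libraries marked 10, 19 and 16 and Pdgfra+ libraries 2, 2 and 10, a mean share of 60.0% against 18.7% where all genes had 16.7% against 7.86%. The highest Pdgfra+ library equalled the lowest DP library. The gap of 41.3 percentage points was 20 with Pdgfra+ replicate 3 as the sole Pdgfra+ library, where that of all genes was -1.54. Of the 25 genes, 5 (20%) were marked in 3 of 3 DP and 0 of 3 Pdgfra+ libraries, beside 0.858% of all genes, and none the other way. Of the 9 pluripotency genes marked in all DP libraries, 5 (55.6%) were missing from the long Pdgfra+ list, beside 196 of 1472 (13.3%) over all genes. With equal lists the counts were 3, 3 and 4 against 2, 2 and 2, which did not overlap but differed by few genes, and none of the 25 was in 3 of 3 DP and 0 of 3 Pdgfra+ libraries.

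The 5 genes were Tfcp2l1, a transcription factor of the naive network, Dppa3, which protects DNA methylation marks in the early embryo, Dppa4, a chromatin protein of pluripotent cells, Tet2, which oxidises methylated cytosine, and Utf1, a chromatin factor of pluripotent cells. Tfcp2l1 had peaks of 6856, 37737 and 6493 total signal in DP replicates 1 to 3, at places of 77.8, 18.5 and 96.3%, and none in Pdgfra+. The points of highest signal of its 3 peaks lay within 0.212 kb of each other. Dppa3 had peaks of 9473, 55576 and 9793 at places of 31.3, 7.74 and 45.1%, whose maxima were spread over 18.5 kb. Tet2 lay at 17.5, 8.08 and 38.3%, Utf1 at 36.3, 11.4 and 8.38% and Dppa4 at 52.3, 68.2 and 58.3%. The best placed were therefore Tet2 and Utf1, while Tfcp2l1 stood near the end of 2 lists and Dppa4 in the lower part of all 3. The maxima of Tet2 lay within 0.707 kb, while those of Utf1 were spread over 18.45 kb.

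The OCT4 gene itself was high in every DP list. Pou5f1 had total signal of 20615, 65991 and 36074 in DP replicates 1 to 3, at places of 1.76, 5.02 and 1.42%, and was listed in Pdgfra+ replicate 3 at 26189 (6.63%) and not in Pdgfra+ replicates 1 and 2. Its places in DP were all above that of the Pdgfra+ library that listed it. H3K27ac lists of 1 DP and 1 Pdgfra+ library marked it as well. Nanog was listed in DP replicates 2 and 3 (83.5 and 19.9%) and in Pdgfra+ replicate 3 (67.1%), with maxima within 0.157 kb. Esrrb was marked in none of the 6 libraries under this rule.

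Of the other 20 pluripotency genes 10 were listed in both populations, 5 in DP alone and 5 in none. Klf4, which encodes a Krüppel-like factor also active in epithelia, was marked in all 6 libraries. Klf5, Sall4 and Pou5f1 were marked in 3 DP and 1 Pdgfra+ library, Nanog, Tbx3 and Prdm14 in 2 and 1, Lin28a and Dppa5a in 2 and 2 and Sox2 in 1 and 1. Dppa2 and Fbxo15 were listed in 2 DP libraries and Klf2, Nr5a2 and Tet1 in 1, with none of these 5 in a Pdgfra+ library. Esrrb, Zfp42, Tdgf1, Fgf4 and Nr0b1 were marked in none, and Nr0b1 lies on chromosome X, where few or no peaks were listed. List genes named here that were not in all libraries of one population and none of the other were picked after their values were seen.

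On the endoderm side the direction of the gap with all peaks changed with the Pdgfra+ libraries that entered. Of 15 endoderm transcription factors, DP libraries marked 4, 10 and 7 and Pdgfra+ libraries 2, 2 and 8, and 1 of 15 (6.67%) was in 3 of 3 DP and 0 of 3 Pdgfra+ libraries with none the other way, beside 0.858% and 0.0274% of all genes. The gap in mean share of 20 points was -6.67 against Pdgfra+ replicate 3 alone, beside -1.54 for all genes, with the short DP replicate 1 in the DP mean. Cut to the length of Pdgfra+ replicate 3, DP replicates 2 and 3 marked 9 and 7 against its 8. The 1 factor called for DP was Sox17, an endoderm factor, with 7260, 15965 and 8947 total signal in DP, at places of 66.1, 81.9 and 53.7%. Of the 4 factors marked in all DP libraries it was the 1 (25%) missing from Pdgfra+ replicate 3, beside 13.3% over all genes. H3K27ac lists marked Sox17 in 2 of 3 DP and 3 of 3 Pdgfra+ libraries, so that mark was listed at Sox17 in both populations.

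The GATA factors differed from each other. Gata6, the first factor of the lineage, was at 19.8, 5.36 and 27.5% in DP and at 93.7% in Pdgfra+ replicate 3 alone of its population. Gata4, which acts with it, was missing from DP replicate 1, at 14.8 and 28.8% in DP replicates 2 and 3, and at 91.2, 80.2 and 15.5% in all 3 Pdgfra+ lists. H3K27ac lists marked Gata6 in 3 of 3 libraries of each population and Gata4 in 2 DP and 3 Pdgfra+ libraries. Foxa1, Foxq1, Prdm1, Lhx1 and Cited1 were marked in none, and Cited1 lies on chromosome X, where few or no peaks were listed.

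Basement membrane genes had the highest share of any list in both populations. DP libraries marked 11, 12 and 11 of 15 genes and Pdgfra+ libraries 5, 4 and 13, and with equal lists 2, 10 and 7 against 3, 4 and 7. None of the 15 genes was in 3 of 3 DP and 0 of 3 Pdgfra+ libraries with all peaks, or the other way. The gap of 26.7 points was -11.1 against Pdgfra+ replicate 3 alone, beside -1.54 for all genes. Cut to the length of Pdgfra+ replicate 3, DP replicates 2 and 3 marked 11 and 11 against its 13. Hspg2, which encodes perlecan, was marked in all 6 libraries. Lamc1, the laminin gamma chain, was in the equal lists of 3 of 3 DP libraries (places of 24.4, 4.22 and 1.96%) and was listed at 23.4% in Pdgfra+ replicate 3, and so below its equal list. With equal lists it was the 1 gene of 15 called for DP (6.67%, beside 0.164% of all genes).

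The type IV collagen genes Col4a1 and Col4a2 start head to head, and peaks between them were shared out by the nearest start. Col4a1 was marked in 3 DP libraries (41.3, 7.45 and 21.3%) and in Pdgfra+ replicates 1 and 3 (53.8 and 9.90%). Col4a2 was marked in DP replicate 2 (5.07%) and in Pdgfra+ replicates 2 and 3 (22.3 and 6.54%). Between them every one of the 6 lists thus had a peak at the pair. Of 10 parietal endoderm genes DP marked 3, 6 and 6 and Pdgfra+ 3, 2 and 8, with Pth1r, a parathyroid hormone receptor of parietal endoderm, in the equal lists of all 6. Of 20 genes of endocytosis and visceral endoderm DP marked 5, 14 and 11 and Pdgfra+ 3, 2 and 11, with none in 3 of 3 libraries of one population and 0 of 3 of the other. The gap in mean share was 6.67 points for the parietal and 23.3 for the visceral list. Against Pdgfra+ replicate 3 alone these gaps were -30 and -5, beside -1.54 for all genes, with the short DP replicate 1 in the DP mean. With equal lists and all libraries they were -3.33 and 6.67.

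The gene of the sort marker was listed in 3 DP and 2 Pdgfra+ libraries, and in 3 and 1 with equal lists. Pdgfra had 11636, 101753 and 20122 total signal in DP, at 16.3, 1.68 and 9.07%, and 7558 and 21431 in Pdgfra+ replicates 1 and 3, at 16.5 and 12.4%, with no peak in Pdgfra+ replicate 2. H3K27ac lists marked it in 2 DP and 3 Pdgfra+ libraries. Pdgfrb, the second receptor of the family and a gene of fibroblasts too, was at 45.7, 41.0 and 50.3% in DP and in no Pdgfra+ list, while H3K27me3 lists marked it in 3 DP and 1 Pdgfra+ library. It was 1 of the 8 genes of the PDGF family list (12.5%) and 1 of the 20 of the feeder fibroblast list (5.0%) called for DP, beside 0.858% of all genes. Fibroblast genes were otherwise nearly unmarked. DP libraries marked 1, 2 and 3 of the 20 and Pdgfra+ libraries 0, 0 and 1, equal lists marked 0 in all 6 libraries, and Col1a1, Col1a2, Col3a1, Twist1, Prrx1, Postn and Dcn were marked in none.

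Nodal and Activin signalling, which the Activin A of the nEnd medium drives, had the second widest gap after pluripotency. Of 20 genes DP libraries marked 8, 13 and 14 and Pdgfra+ libraries 1, 2 and 8, a gap in mean share of 40 points that was 18.3 against Pdgfra+ replicate 3 alone. Lefty2, a secreted Nodal inhibitor that Nodal signalling itself induces, was the 1 gene of 20 (5.0%) in 3 of 3 DP and 0 of 3 Pdgfra+ libraries, beside 0.858% of all genes. Of the 7 list genes marked in all DP libraries, Lefty2 was the 1 (14.3%) missing from Pdgfra+ replicate 3. The share over all genes was 13.3% (196 of 1472), so this list was near it. Lefty2 had 11208, 115743 and 19566 total signal in DP, at 18.5, 1.19 and 9.72%, and its window is among the sequences above with 2 GATA matches. H3K27ac lists marked Lefty2 in 1 DP library and no Pdgfra+ library, and H3K27me3 lists in 2 Pdgfra+ libraries and no DP library. Pcsk6, a convertase that activates Nodal precursors, was at 0.458, 4.59 and 0.538% in DP and at 33.2% in Pdgfra+ replicate 3, and was the 1 of 20 called for DP with equal lists, beside 0.164% of all genes. Lefty1 was marked in 3 DP libraries and 1 Pdgfra+ library, and the inhibitor Smad7 was in the equal lists of all 6.

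The long Pdgfra+ list marked fewer FGF-ERK and JAK-STAT genes than either long DP list, and a number of Wnt genes between theirs. Of 33 FGF-ERK genes DP marked 5, 20 and 19 and Pdgfra+ 1, 1 and 15, of 28 JAK-STAT genes 4, 13 and 10 and 1, 1 and 9, and of 35 Wnt genes 5, 18 and 14 and 2, 2 and 16. Cut to the length of Pdgfra+ replicate 3, DP replicates 2 and 3 marked 20 and 16 FGF-ERK, 12 and 9 JAK-STAT and 17 and 13 Wnt genes, so that JAK-STAT was level in 1 of them. The feedback inhibitor Spry4 (96.7, 2.32 and 13.8% in DP) and the Wnt antagonist Dkk1 (49.1, 35.4 and 73.9%) were each the 1 gene of their list in 3 of 3 DP and 0 of 3 Pdgfra+ libraries (3.03 and 2.86% of the lists, beside 0.858% of all genes). In each of these 2 lists 5 genes were marked in all DP libraries. Of those 5, 1 (20%) was missing from Pdgfra+ replicate 3, beside 13.3% over all genes. Lif, the cytokine of the medium, and Fgfr3, an FGF receptor, were marked in all 6. BMP genes were sparse, with 1, 8 and 4 of 16 in DP and 1, 0 and 2 in Pdgfra+. The gap against Pdgfra+ replicate 3 alone was also above 0 for BMP (14.6 points), mesendoderm (13.9), PDGF family (20.8) and feeder fibroblast genes (5.0), beside -1.54 for all genes, so naive pluripotency and Nodal genes were not alone in this.

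Trophectoderm genes were marked in the long lists of both populations. Of 22 genes DP marked 6, 12 and 11 and Pdgfra+ 4, 2 and 13, and the gap of 15.2 points was -15.2 against Pdgfra+ replicate 3 alone, with the short DP replicate 1 in the DP mean. Cut to the length of Pdgfra+ replicate 3, DP replicates 2 and 3 marked 10 and 11 against its 13. Krt18, a keratin of simple epithelia, was the 1 gene of 22 (4.55%) called for Pdgfra+ with equal lists, beside 0.073% of all genes, at 29.8, 46.3 and 6.06% in Pdgfra+, and was also at 25.8 and 17.3% in DP replicates 2 and 3. Gata2 was at 54.0, 11.5 and 22.3% in DP and at 96.7 and 27.4% in Pdgfra+ replicates 1 and 3. Tfap2c (24.9 and 91.2%) and Eomes (98.0 and 86.2%), regulators of trophoblast, were listed in DP replicates 2 and 3 and in no Pdgfra+ library. H3K27me3 lists marked Tfap2c and Gata2 in 3 of 3 libraries of each population, so the repressive mark was listed near both genes in each population. Tead4 and Ovol1, both on the list, were in the equal lists of 3 DP libraries and of 2 and 3 Pdgfra+ libraries.

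Lists of other lineages and of housekeeping genes were read for comparison. Of 20 somatic lineage regulators DP marked 2, 4 and 1 and Pdgfra+ 0, 0 and 3, and of 12 mesendoderm genes 1, 5 and 5 and 0, 0 and 2. Formative pluripotency genes stood at 1, 3 and 4 of 12 in DP and 0, 0 and 3 in Pdgfra+. Housekeeping genes, a further comparison, stood at 5, 10 and 8 of 20 in DP and 2, 2 and 9 in Pdgfra+, with Actb and Gapdh in the equal lists of all 6 libraries.

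The 3 long lists allow the comparison without the short ones. At 10620 peaks each, DP replicates 2 and 3 and Pdgfra+ replicate 3 marked 4653, 3886 and 4001 genes. Of all genes 777 (3.55%) were marked in both DP lists and not in the Pdgfra+ list, and 862 (3.93%) in the Pdgfra+ list and neither DP list. With 1 Pdgfra+ library this has no test, and the second count asks for absence from 2 lists and the first from 1. Naive pluripotency had 4 of 25 genes for DP (16.0%: Dppa3, Dppa4, Tet2 and Utf1) and 1 for Pdgfra+ (4.0%, Sox2). Nodal and Activin genes had 5 of 20 for DP (25%: Foxh1, Gdf1, Gdf3, Lefty2 and Nodal) and 0 for Pdgfra+. Trophectoderm had 1 of 22 for DP (4.55%, Tfap2c) and 4 for Pdgfra+ (18.2%: Cdx2, Elf5, Ets2 and Gata3). Basement membrane had 0 of 15 for DP and 1 for Pdgfra+ (6.67%, Col18a1), and endoderm transcription factors 1 of 15 for DP (6.67%, Sox17) and 0 for Pdgfra+. The ligand Nodal, its cofactor Foxh1 and the inhibitor Lefty2 were thus on the DP side of this contrast, which rests on 1 Pdgfra+ list. Nodal (31.7 and 67.3%) and Foxh1 (18.25 and 41.7%) were listed in DP replicates 2 and 3 and not in DP replicate 1. Of the 20 Nodal and Activin genes 8 were marked in all 3 long lists. Mesendoderm had 2 of 12 genes for DP (16.7%, Cdx1 and Evx1) and 0 for Pdgfra+. BMP had 2 of 16 (12.5%) and 0, and PDGF family 1 of 8 (12.5%) and 0. FGF-ERK genes had 3 for DP and 1 for Pdgfra+, and feeder fibroblast genes 1 and 0. Wnt genes had 3 and 4, and JAK-STAT genes 1 and 1. Parietal endoderm and somatic lineage regulators had 0 and 1 each, and housekeeping genes 0 and 2. Naive pluripotency and Nodal genes were therefore not alone on the DP side.

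**Figure D4:**
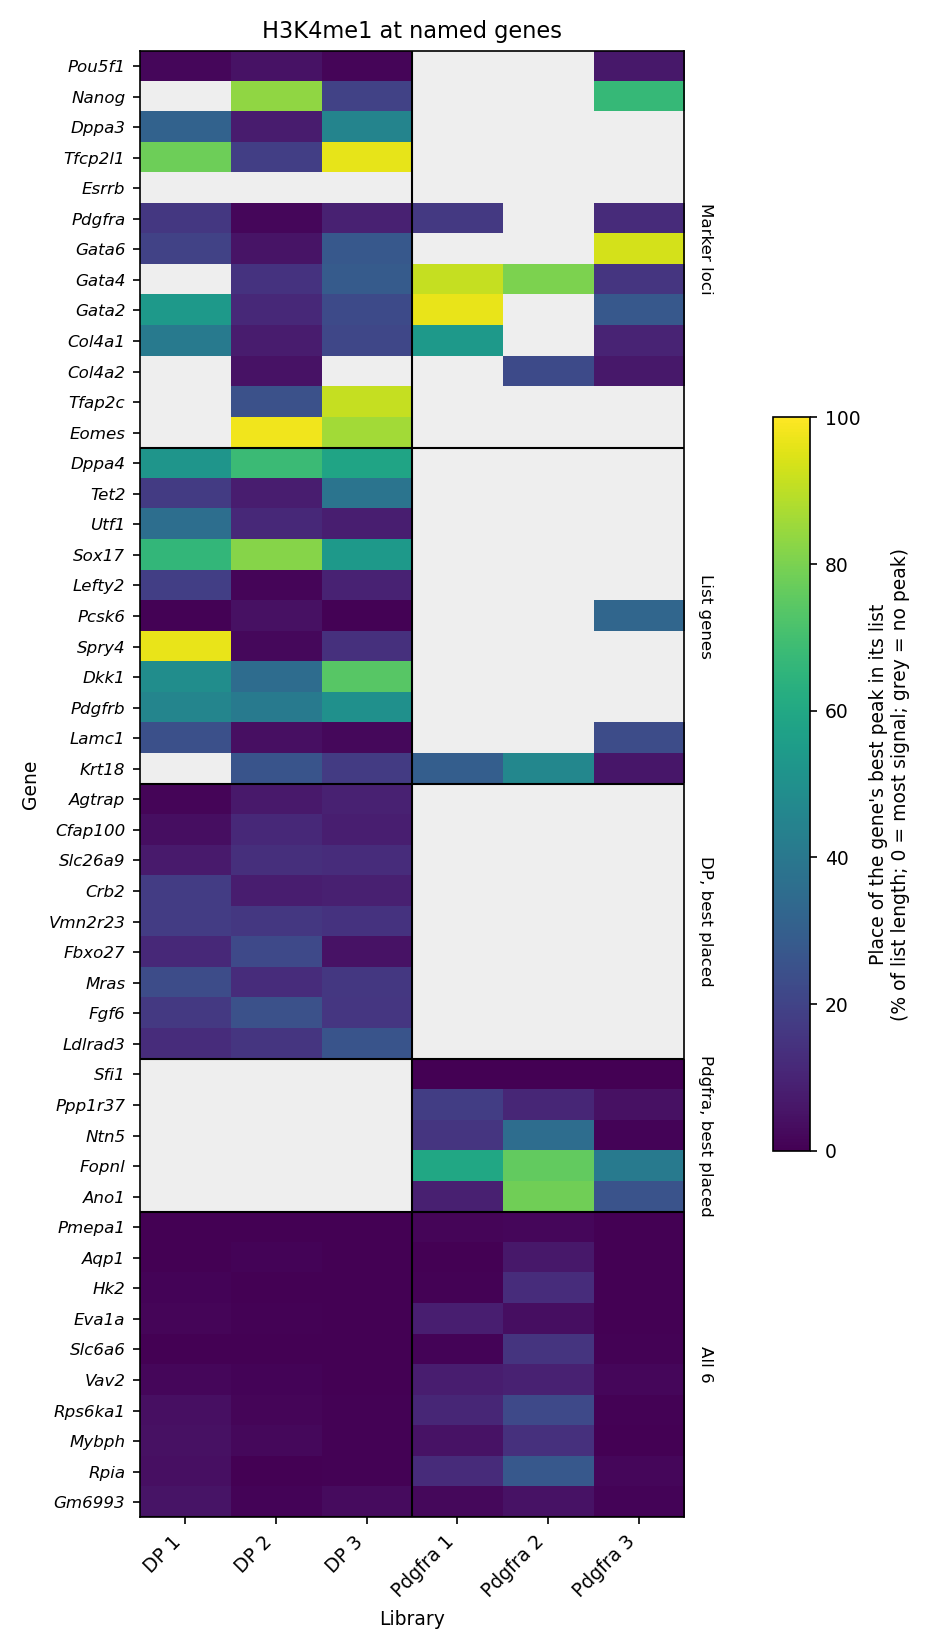
Place of the best H3K4me1 peak of each named gene (rows) in each library (columns), as a percentage of the list's length, with 0 the most signal and grey for no peak. The blocks for the best placed DP and Pdgfra+ genes are grey on the opposite side because that is how they were chosen, while Pou5f1, Pcsk6 and Lamc1 are dark in the 3 DP columns and also listed in Pdgfra replicate 3.

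Of the 188 DP genes the 10 whose worst of 3 places was best were Agtrap, Cfap100, Slc26a9, Crb2, Vmn2r23, Lefty2, Fbxo27, Mras, Fgf6 and Ldlrad3. Agtrap, which encodes a protein bound to the angiotensin receptor, had 21020, 59113 and 20261 total signal, at 1.44, 6.74 and 8.99%, and its 3 maxima lay within 0.004 kb. Crb2, a polarity protein of the apical membrane, had 11350, 54885 and 20291, at 17.8, 7.98 and 8.96%, with maxima within 0.164 kb. Each of these places lies in the upper part of its list, and no Pdgfra+ library listed either gene. H3K27ac lists marked Agtrap in 0 of 6 libraries and Crb2 in 2 DP and 1 Pdgfra+ library. Cfap100, Vmn2r23 and Fgf6 lie on chromosome 6. Slc26a9, an anion transporter, was at 7.05, 13.5 and 12.8% and Mras, a RAS family GTPase, at 23.2, 12.5 and 16.4%. Cfap100, Slc26a9, Vmn2r23, Mras and Fgf6 were marked by H3K27ac in 0 of 6 libraries, which leaves Fbxo27 (2 DP libraries), Ldlrad3 (1) and Lefty2 (1) besides Crb2.

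The 6 genes of the opposite direction included Sfi1, Ppp1r37, Ntn5, Fopnl and Ano1. Sfi1, a centrosomal protein, held places 1, 3 and 4 of the 3 Pdgfra+ lists, with 21897, 14102 and 104864 total signal, and no DP list named it. Its maxima lay within 0.015 kb of each other, 0.073 kb from its TSS in an exon that also overlaps Drg1. No H3K27ac list assigned a peak to Sfi1, but an H3K27ac peak overlapped the region itself in 2 Pdgfra+ libraries and no DP library. Ppp1r37, a regulator of protein phosphatase 1, had 7397, 7427 and 30159, at 18.2, 10.7 and 4.39%. Ntn5, a netrin, had 7660, 5619 and 45946, at 15.5, 35.6 and 1.1%. H3K27ac lists marked Ppp1r37 in 2 DP and 3 Pdgfra+ libraries, and Ntn5 in 3 and 3, so that acetylation at both genes was listed in DP too. Fopnl and the chloride channel gene Ano1 reached places of 75.9 and 78.5% in their lowest Pdgfra+ list.

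The genes highest in all 6 lists were led by Pmepa1, Aqp1, Hk2, Eva1a, Slc6a6, Vav2, Rps6ka1, Mybph, Rpia and Gm6993. Pmepa1, a target and inhibitor of TGF-beta signalling, had 44087, 314796 and 76258 total signal in DP and 13025, 10854 and 67687 in Pdgfra+, ranking 1, 3 and 6 and then 26, 19 and 29. In Pdgfra+ replicate 3 the region of joined peaks at Pmepa1 also held a peak that ranked 5 (104737 total signal). The gene rule did not assign that peak to Pmepa1. Aqp1, a water channel, ranked 2, 108 and 25 in DP and 2, 69 and 10 in Pdgfra+. Hk2, hexokinase 2, ranked 35, 2 and 1 and then 13, 138 and 17. Of the 10 genes Aqp1, Hk2, Eva1a, Slc6a6 and Rpia lie on chromosome 6. H3K27ac lists marked each of the 10 in at least 2 DP and 2 Pdgfra+ libraries.

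By position, the peaks of the 6 lists joined into 17156 regions. Of these, 572 (3.33%) had a peak in 3 of 3 DP and 0 of 3 Pdgfra+ libraries, 17 (0.0991%) the other way and 376 in all 6. With equal lists 2986 regions gave 74 (2.48%), 45 (1.51%) and 124. As with genes, the excess of DP regions was narrower with lists of 1 length. Chromosome 6 held 13.8% of the 572 regions, 29.4% of the 17 and 8.64% of all. With equal lists it held 24.3% of the 74, 28.9% of the 45 and 12.5% of all, and region counts without it are not given. Regions of DP alone had a median width of 4322 bp and those in all 6 of 9056 bp, and 17.1% of the first, 16.0% of the second and 20.6% of all regions touched a promoter. Introns held 40.2% of the DP regions and 53.5% of those in all 6, and intergenic sequence 38.6 and 27.4%.

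With all peaks, regions of DP alone overlapped acetylation less often than regions in general. A DP H3K27ac peak overlapped 27.8, 4.90 and 17.5% of the 572 regions in DP replicates 1 to 3 and a Pdgfra+ one 5.94, 6.82 and 8.57% in Pdgfra+ replicates 1 to 3. For all 17156 regions the shares were 38.3, 11.9 and 42.4% and 20.3, 24.3 and 19.1%, and for the 376 regions in all 6 lists 87.2, 48.4 and 91.8% and 70.5, 72.6 and 56.4%. In every one of the 6 H3K27ac libraries the regions of DP alone were thus below all regions, and these were below the regions in all 6 lists. All regions had a median width of 3728 bp, and a part of region width in these shares was not tested. With equal lists the order of the shares did not hold. A DP H3K27ac peak overlapped 79.7, 25.7 and 54.1% of the 74 regions of DP alone and 67.8, 28.3 and 72.1% of all 2986, so the first share was higher in DP replicate 1 and lower in DP replicates 2 and 3. H3K27me3 peaks of at least 2 DP libraries overlapped 8.92% of the 572 regions and those of at least 2 Pdgfra+ libraries 4.55%, beside 7.92 and 2.45% of all regions.

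**Figure D5:**
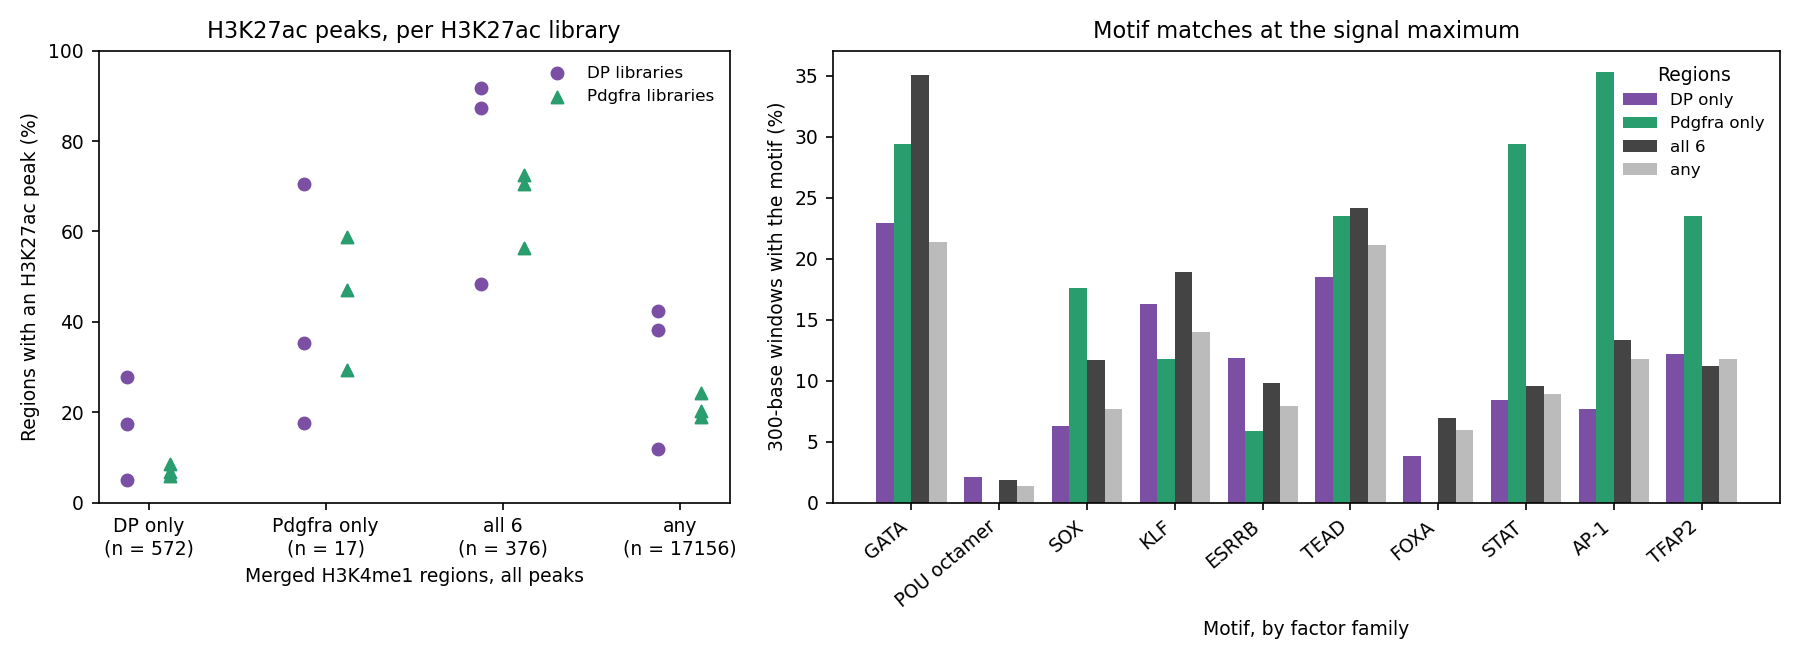
Left, percentage of merged H3K4me1 regions (all peaks) that overlap an H3K27ac peak in each DP library (circles) and Pdgfra library (triangles), for regions of DP alone, Pdgfra alone, all 6 lists and any list. Right, percentage of 300-base windows at the signal maximum with each motif. Regions of DP alone lie at 4.90 to 27.8% and regions in all 6 at 48.4 to 91.8% for H3K27ac.

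The DP regions with the best worst place were led by chr10:95551074-95562035 (10962 bp), in an intron 7.59 kb from the TSS of Nudt4, with 18300, 66970 and 24033 total signal. The next were chr6:91663314-91673275, intergenic and 15.8 kb from Slc6a6, and chr15:62218735-62224898, intergenic and 236 kb from Myc, its nearest protein-coding TSS. The first had H3K27ac in 3 DP libraries and 1 Pdgfra+ library, the second in 1 and 0, and the third in none. Another of the 10, chr4:55470209-55482371, lay 56.2 kb from Klf4. Of the 17 Pdgfra+ regions the best placed after Sfi1 was chr12:8377446-8380852, intergenic and 65.7 kb from Hs1bp3, with 8904, 8423 and 21850 total signal and H3K27ac in 3 DP and 2 Pdgfra+ libraries.

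Motif matches were counted in 300-base windows at the signal maxima of the regions. GATAAG was found in 22.9% of the 572 windows, 21.4% of all 17156 windows of the same length and 35.1% of the 376 windows in all 6 lists. AAGGTCA was in 11.9, 7.90 and 9.84% of these windows, GGGTGTG in 16.3, 14 and 18.9%, ATTTGCAT in 2.10, 1.40 and 1.86%, AACAATG in 6.29, 7.66 and 11.7% and GTAAACA in 3.85, 5.98 and 6.91%. GGAATG was in 18.5, 21.1 and 24.2%, TTCNNNGAA in 8.39, 8.91 and 9.57%, TGANTCA in 7.69, 11.8 and 13.3% and GCCNNNGGC in 12.2, 11.8 and 11.2%. Of the 17 Pdgfra+ windows 6 held TGANTCA, 5 GATAAG, 5 TTCNNNGAA, 4 GGAATG, 4 GCCNNNGGC, 3 AACAATG, 2 GGGTGTG and 1 AAGGTCA. ATTTGCAT and GTAAACA were in 0 of them. The Ntn5 window printed above holds 2 matches to TGANTCA. With equal lists TTCNNNGAA was in 4 of 45 Pdgfra+ windows (8.89%), 11 of 74 DP windows (14.9%) and 9.11% of all 2986. With equal lists TGANTCA was in 13 of 45 Pdgfra+ windows (28.9%), 8 of 74 DP windows (10.8%) and 12.9% of all 2986, and GATAAG in 14 (31.1%), 30 (40.5%) and 26.7%. Median GC content was 51.3% for the 572 windows, 50.8% for the 376 and 49.7% for all. The windows come from lists of unequal length, and these shares are descriptions with no test.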

How the data were processed

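H3K4me1 was profiled by CUT&Tag in 3 replicates each of DP and Pdgfra+ nEnd. Per the labels, the authors' tools were bcl2fastq 2.19.1, Bowtie2, SAMtools 1.12, deepTools, SEACR and bedtools 2.26.0, with genome build mm10 (GRCm38). The deposited lists are SEACR stringent calls, 1 per library against IgG, and hold summed and maximal fragment coverage (signal) for each peak. The series holds a single IgG library for each population, so the 3 lists of a population may share a control. The study says only that an IgG control was used, and the part of the control in the calls was not tested. The values are whole numbers and not scaled to depth, and read totals are not given in the sources used here, so list length could not be set against depth. The authors' other marks were read from the same kind of list.

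Peaks were joined to 21911 protein-coding genes (GENCODE, 1 TSS per gene) within 20 kb of the peak midpoint and ranked by total signal, with all peaks and with as many of the highest as the shortest list held (equal lists). Regions are peaks of any of the 6 lists joined where they overlap. Library values were compared by exact two-sided permutation tests over the 20 assignments of 6 libraries, and Jaccard indices by an exact one-sided test over 10 partitions, with Benjamini-Hochberg adjustment over 9 tests. Gene and region counts are descriptions read against the share of all genes or regions. The members and gene lists (17 lists, 316 distinct genes) were chosen with earlier results of these data known. Named genes were the studied loci and sort markers, list genes in 3 of 3 libraries of one population and 0 of 3 of the other, the 10 best placed such genes of each direction, and the 10 best placed genes of all 6 lists. Gata6 and Gata4 were added after their values were seen. Gene calls, merging and nearest distances were tested on simulated data or against bedtools 2.31.1. Alternatives were other distances and TSS sets, other rankings and list lengths, and each library left out. Python 3.11.15 and pysam read sequences from GRCm38. The Oct4 lists were not used here, and some named genes and sequences are not reported here.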

Additional observations from a re-analysis of the deposited data

How the results depend on the processing

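No comparison of whole lists could pass 0.05, so its p-values say nothing about stability. With 1 library left out, the Jaccard excess with all peaks ranged from -0.0201 (without DP replicate 3) to 0.150, and was also below 0, at -0.0107, without DP replicate 2. Over the same alternatives the counts in 3 of 3 DP and 0 of 3 Pdgfra+ libraries ranged from 188 to 924 genes and from 575 to 2457 regions with all peaks, and from 42 to 83 genes and from 87 to 166 regions with equal lists. The opposite counts ranged from 6 to 34 genes and from 18 to 122 regions, and with equal lists from 21 to 46 genes and from 57 to 114 regions. Regions in every list ranged from 376 to 893.

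Within 5 kb, DP genes numbered 116, or 16 with equal lists, and Pdgfra+ genes 7 with equal lists. Within 50 kb Pdgfra+ genes with equal lists numbered 37, with the TSS of every transcript 29, and with any interval within 20 kb DP genes numbered 61. With 500 peaks per list the gene counts were 14 and 6, the region counts 28 and 24, and 40 regions were in every list. Against Pdgfra+ replicate 3 alone, an alternative chosen after seeing the data, the Pdgfra+ genes numbered 707 with all peaks, and with equal lists the counts were 55 and 170. With the upper 50% of each list 337 regions were of DP alone and 166 in every list. Asking that a peak cover 50% of a region, also chosen after seeing the data, left 351, 5 and 7 regions with all peaks and 21, 16 and 0 with equal lists. The planned minimum overlap of 50% or 500 bp was nearly void, since a merged region contains its peaks.

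Against Pdgfra+ replicate 3 alone the list gaps were 20 points for naive pluripotency, -6.67 for endoderm transcription factors, -11.1 for basement membrane and -15.2 for trophectoderm. In each of these gaps the short DP replicate 1 entered the DP mean. With equal lists the naive pluripotency gap was 10.7 within 50 kb, 12 with any interval, 9.33 with every TSS and 2.67 with 500 peaks, and the trophectoderm gap was -3.03 within 50 kb, with any interval and against Pdgfra+ replicate 3 alone. The cause of these shifts was not tested, except that fewer or other libraries enter. Deviations of same-numbered libraries correlated at 0.249, -0.180 and 0.133 with all peaks, and those of other-numbered libraries at -0.342 to 0.292. Whether the numbers pair the libraries could not be told from this, because list lengths differed widely within each population. With the replicate block the difference in the number of peaks stayed 4721, with an exact sign-flip p of 0.25, the smallest possible. Read depth was not known, and list length limits what an absent peak shows.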
